A study of Mus musculus with 3 samples.

Results

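Transcript levels of 33 interferon-stimulated genes were examined in primary fibroblasts of the mouse, wounded and then kept for 5 h with the soluble micrograft (MG) and the MEK inhibitor PD0325901. The genes were chosen by name as well-known targets of interferon, and all 33 had a row among the 43472 rows of the count table. Fibroblasts came from tail tips of C57BL/6 mice, the wound was a scratch drawn through the cell layer, and MG was a filtered extract of mouse skin diluted in the growth medium. PD0325901 blocks the kinase MEK and, with it, ERK signaling. All 3 libraries belong to this MG + PD0325901 condition and are labelled replicates 1, 2 and 3. The labels do not say whether they came from separate animals, so the spread between them may be partly technical. Samples without treatment or with MG alone were not analysed here, and no value below is a response to MG or to the inhibitor.

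Interferons are secreted alarm proteins. Type I interferons bind the receptor Ifnar1/Ifnar2, the kinases Jak1 and Tyk2 are activated, and a complex that holds Stat2 and Irf9 binds the interferon-stimulated response element in target promoters. Interferon gamma acts through Ifngr1/Ifngr2 and another sequence, the GAS element. The targets make proteins that sense foreign RNA, stop translation or trap virus particles, and many of them keep a low basal level in fibroblasts without infection.

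Values are normalized counts as the authors deposited them, in which 1 size factor divides the read counts of each library. The libraries held between 17244505 and 27037783 reads on genes, and a count of 0 allows up to 3 reads, which equals 2.61, 2.11 and 3.56 normalized counts in replicates 1, 2 and 3 and covers counting error only. Detected here means 10 or more normalized counts in each of the 3 libraries. All 10 fibroblast markers were detected, with Col1a1 at no less than 154124. Of the other cell types a tail or skin preparation could carry, 3 of 9 leukocyte markers were detected (Csf1r, Cd68 and Lyz2) and the list summed to 233, 291 and 878 normalized counts in replicates 1, 2 and 3, with Ptprc at 2, 1 and 1 reads. For keratinocytes 2 of 6 markers were detected, the list summed to 1589, 327 and 1516, mostly Sfn, and Krt1 and Krt15 were at 0. For endothelial cells 1 of 5 was detected, the list summed to 90.3, 244 and 55.7, and Cdh5 was at 0, 0 and 1 reads. In bulk samples, fewer cells of a type and less RNA per cell cannot be told apart.

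Most of the interferon-stimulated genes had low transcript levels in these treated cells, with none of the 5 OAS genes of the list detected. In all, 25 of the 33 genes were detected, beside 60.1% of the 20322 genes with reads. The other 8 were all 5 OAS genes, Mx1, Mx2 and Cmpk2, and each of them had at least 1 read in some library. Compared per length, the median over the 25 detected genes of the list was 26.8 normalized counts per kb of exon, against 107 for all 11620 detected genes with an annotated length. Over all 33 it was 13.1. Only Gbp2, Bst2, Ifi35 and Isg15 lay above that median, and 13 of the 25 detected lay below 36.2, the first quartile of those genes. The plot of levels by library shows this spread from Gbp2 down to Mx1 and Oas2.

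**Figure D1:**
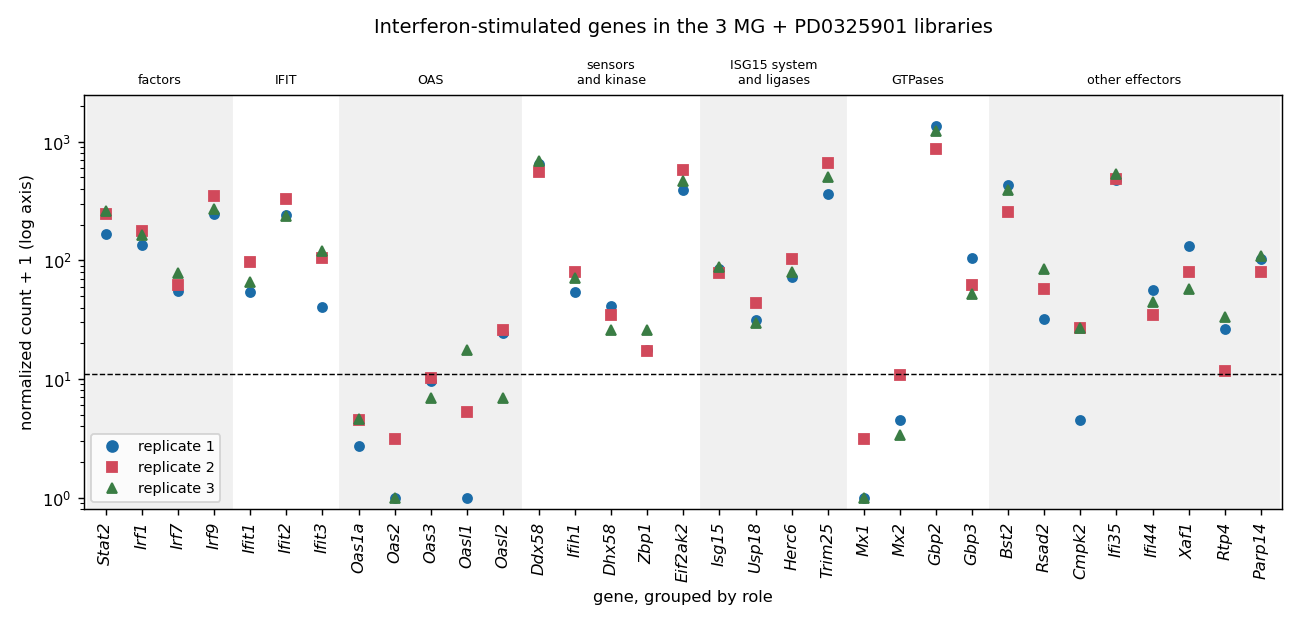
Normalized count + 1 (log axis) of each of the 33 genes in replicates 1, 2 and 3, grouped by role, with a dashed line at the detection limit of 10 normalized counts. Gbp2 stands highest with 871.6 to 1363, while the OAS genes, Mx1 and Mx2 lie near or under the line.

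By level per kb, the order was led by Gbp2 with 460 ± 101 normalized counts per kb, Bst2 with 397 ± 100.4 and Ifi35 with 289 ± 18.1 (SD, n = 3). They held ranks 1, 2 and 3 in each of the 3 libraries, although the ranges of neighbours in this order overlapped. Isg15 followed with 109.7 ± 7.37, and its libraries lay wholly below those of Ifi35. Of the 32 pairs of neighbours in the order, 2 had libraries that did not overlap, this one and Oas3 over Mx1. Both Oas3 and Mx1 had few reads, so their order is uncertain. Within libraries, 10 of the 32 pairs stood in this order in all 3, so most neighbours did not keep it throughout. With the longest transcript as the length, 9 of the first 10 genes stayed among the first 10.

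The response element was found in 13 of the genes. The windows below are shown because it stands before genes both high and low in the order of levels. RefSeq promoter windows (GRCm38.p6, 250 bases before to 50 after the start site) were matched for 25 of the 33 genes. The core is GAAA, any 2 bases and GAAA again. Searched on both strands, it was found in 13 of the 25 windows, beside 3.99% of 27025 genes, and it lay upstream of the start site in 10 of the 13. Its longer form, the core followed by CT, was found in 7 windows, beside 0.303% of genes. The GAS letters, TTC, any 3 bases and GAA, read the same on both strands and were found in 6, beside 9.55%. Each sequence below runs 5′ to 3′ on the strand of its gene, in order of level per kb, with matches of the core in capitals, so that a core on the opposite strand reads TTTC, any 2 bases and TTTC. All lie upstream of the start site.
Gbp2 (chr3:142620569-142620648, plus strand): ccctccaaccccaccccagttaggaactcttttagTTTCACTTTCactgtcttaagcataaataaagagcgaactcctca
Bst2 (chr8:71537552-71537631, minus strand): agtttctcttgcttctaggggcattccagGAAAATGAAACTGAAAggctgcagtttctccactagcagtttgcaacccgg
Isg15 (chr4:156200840-156200919, minus strand): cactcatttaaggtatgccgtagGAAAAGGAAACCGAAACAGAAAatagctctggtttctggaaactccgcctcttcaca
Ifit3 (chr19:34583372-34583451, plus strand): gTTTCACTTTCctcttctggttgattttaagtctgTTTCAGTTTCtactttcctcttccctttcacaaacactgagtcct
Ifit1 (chr19:34640769-34640848, plus strand): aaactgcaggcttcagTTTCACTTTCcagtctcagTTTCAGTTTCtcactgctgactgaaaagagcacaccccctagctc
Gbp3 (chr3:142559970-142560043, plus strand): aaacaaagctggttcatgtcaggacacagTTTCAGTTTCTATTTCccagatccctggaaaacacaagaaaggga
Rsad2 (chr12:26456528-26456607, minus strand): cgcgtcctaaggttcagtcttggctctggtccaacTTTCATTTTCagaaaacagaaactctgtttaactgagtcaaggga
Oas1a (chr5:120907526-120907574, minus strand): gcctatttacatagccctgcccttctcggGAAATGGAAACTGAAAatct
Oas3 (chr5:120777690-120777769, minus strand): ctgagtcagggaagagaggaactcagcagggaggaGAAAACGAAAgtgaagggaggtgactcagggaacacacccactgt

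In Isg15 the core matched 3 times in overlapping copies, the first starting 78 bases before the start site. Bst2, Gbp3, Ifit1, Ifit3 and Oas1a each held 2 matches, and Ddx58, Eif2ak2 and Ifih1 held 1 match each, only after the start site. In Bst2 a match of the GAS letters overlaps the first core. Irf1, the gene of a factor induced by interferon gamma, held no core but the GAS letters 90 bases before its start site. Its window is shown for contrast, with the GAS letters in capitals.
Irf1 (chr11:53769889-53769967, plus strand): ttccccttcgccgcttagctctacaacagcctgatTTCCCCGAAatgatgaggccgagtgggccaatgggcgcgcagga

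**Figure D2:**
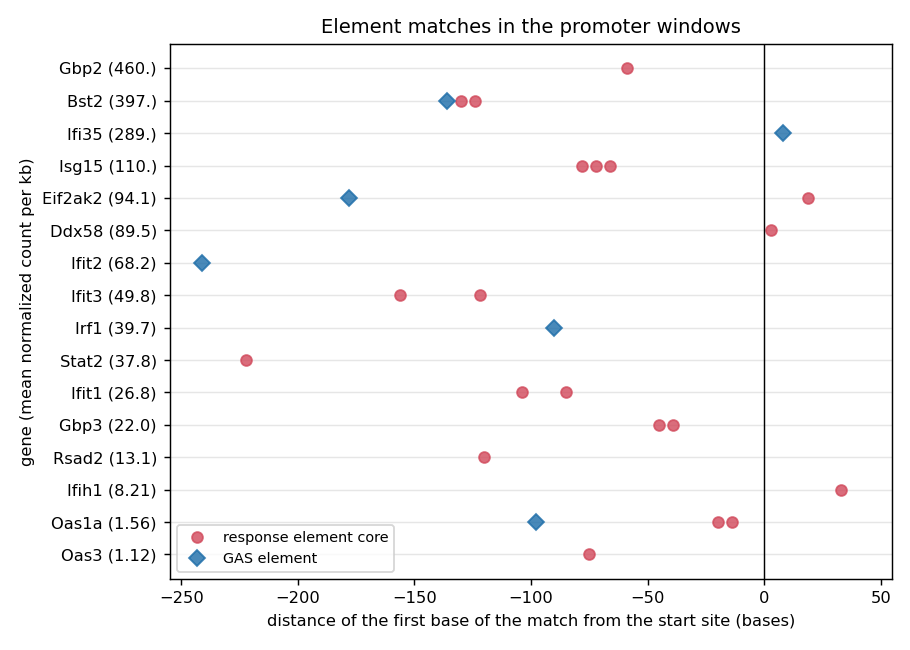
Distance in bases from the start site to the first base of each match of the response element core (circles) and the GAS letters (diamonds), for the genes with a match, ordered by mean normalized count per kb (in brackets, n = 3). Matches of the core stand before Gbp2 at 460 per kb and before Oas3 at 1.12 per kb.

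Levels differed widely among genes with the same element. The 13 genes with the core had a median of 37.8 normalized counts per kb and ranged from 1.12 for Oas3 to 460 for Gbp2. The 12 genes whose window lacked it had a median of 18.0 and ranged from 2.66 to 289. No window was matched for Dhx58, Mx1, Mx2, Oas2, Parp14, Rtp4, Usp18 and Zbp1. These 8 genes had a median of 7.75 and ranged from 0.158 to 12.1. A match is a description of the letters in the window and not evidence of binding.

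The components that carry the interferon signal were present, whereas hardly any RNA of an interferon was found. Of the 21 interferon genes listed, 19 had no read in any library, Ifnb1, Ifng and Ifnl2 among them. Ifnz had 14, 5 and 7 reads in replicates 1, 2 and 3, and Ifne had 2, 0 and 0. Only uniquely aligned reads were counted, so reads common to several of the near-identical Ifna genes would have been left out. On the receptor side, 5 of 6 genes were detected, beside 60.1% of all genes with reads. Ifnlr1, part of the receptor for lambda interferons, had 4, 0 and 0 reads. Ifnar1, a chain of the type I receptor, had 1101 normalized counts in replicate 1, 1126 in replicate 2 and 1424 in replicate 3. Its partner Ifnar2 had 667, 402 and 735, lowest in replicate 2. Ifngr1 and Ifngr2, which form the receptor for interferon gamma, had means of 767 ± 172 and 2209 ± 484 normalized counts (SD, n = 3).

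The kinases next to the receptors and the factors they act on stood at unequal levels. Jak1, the kinase common to these receptors, stood at 588 ± 164 normalized counts per kb (SD, n = 3), far above Stat2 with 37.8 ± 8.65. The kinases Tyk2 with 102 ± 31.1 and Jak2 with 131 ± 18.2 lay between them. Stat3, which serves mainly other cytokines, stood at 441 ± 84.4. In the list of sensing adaptors and kinases, 13 of 16 were detected, beside 60.1% of all genes with reads. Mavs, the adaptor of the RNA sensors, had 742, 870 and 818 normalized counts, and Tbk1, the kinase below it, had 762, 729 and 798, with hardly any spread in either. Irf3, the factor Tbk1 activates, had 591, 881 and 896, lowest in replicate 1.

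**Figure D3:**
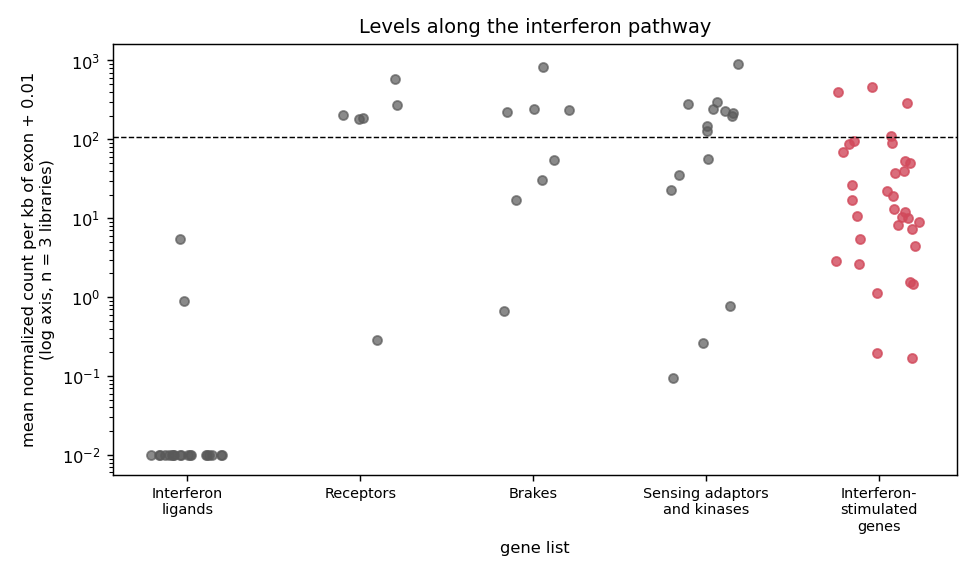
Mean normalized count per kb of exon + 0.01 (log axis, n = 3) of genes in 4 lists along the interferon pathway and of the 33 interferon-stimulated genes. The dashed line marks 107, the median of detected genes. Mb21d1 of the sensing list has no annotated length and is not drawn. Most interferon genes lie at 0, the receptors other than Ifnlr1 above the line, and 29 of the 33 interferon-stimulated genes below it.

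The 4 transcription factors of the list were all detected and were all lowest in replicate 1, as were 34.5% of all detected genes. For Irf1, Irf7 and Irf9, replicates 1 and 3 did not differ by the exact binomial test described below. Stat2, which carries the activation domain of the complex, had 165 normalized counts in replicate 1, 247 in replicate 2 and 260 in replicate 3. Irf9, its DNA-binding subunit, had 247, 347 and 269. Irf1 had 134, 177 and 162. Irf7, which drives production of type I interferons, was the lowest of them with 53.8, 61.3 and 77.0 normalized counts. The spread was moderate, as the highest library was at most 1.57-fold above the lowest in each of the 4 (folds are on normalized counts + 1, which understates those of low genes). Irf9 shares 123 bases of exon with Rnf31 on the same strand, so some of its reads could have been assigned differently. The same limit holds for Herc6 (1269 bases shared with Gm45193), Rtp4 (296 with Gm45338) and Parp14 (110 with Gm49730). Overlaps on the opposite strand would matter too if strand was ignored in counting. The longest were in Ifi35 (290 bases with Gm11626), Eif2ak2 (174 with Gm26637), Dhx58 (141 with Dhx58os), Irf1 (135 with Gm17334) and Usp18 (124 with Gm44148).

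Among the IFIT genes, whose proteins bind foreign RNA and which lie within 99.3 kb (GRCm38, chr19:34550694-34650009), Ifit2 had a 1.40-fold range and Ifit3 a 2.98-fold range. Ifit2 had 241, 328 and 235 normalized counts in replicates 1, 2 and 3. Ifit1 had 53.0, 95.1 and 65.2. Ifit3 had 39.1, 103 and 119, with replicate 1 standing 2.59-fold below replicate 2 and 2.98-fold below replicate 3. Replicate 1 was the lowest library for Ifit1 and Ifit3 but not for Ifit2. In the reference transcripts 51.2% of the 50-base stretches of Ifit3 also occur in Ifit3b, so its count is uncertain, while Ifit2 shares none with another gene.

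The OAS genes encode synthetases of the oligoadenylates that activate RNase L, together with the related proteins Oasl1 and Oasl2. None of the 5 was detected. Oas1a had 2, 5 and 3 reads, Oas2 had 0, 3 and 0 reads and Oas3 had 10, 13 and 5 reads in replicates 1, 2 and 3. Those genes were at or close to the limit set by depth in every library, and Oas1a shares 57.6% of its 50-base stretches with Oas1g. Oasl1 had 0, 6 and 14 reads. Its value in replicate 3 was 6.37-fold above 3 reads in replicate 1, the limit for a count of 0. The counting error of the 14 reads is not included in this fold. Oasl2 went the other way with 23.4, 24.7 and 5.93 normalized counts, lowest in replicate 3 on 5 reads. These 2 neighbours, 11.005 kb apart within chr5:114896936-114937915, thus differed between libraries in opposite directions.

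The sensors of foreign RNA and the kinase list had 5 of 5 genes detected, beside 60.1% of all genes with reads. None had a range over 2-fold, beside 21.6% of all detected genes. Ddx58, which encodes RIG-I, had 647, 560 and 686 normalized counts, and its mean was 631 ± 64.5 (SD, n = 3). Eif2ak2, which encodes the translation-stopping kinase PKR, had 394, 580 and 469, highest in replicate 2. Ifih1, which encodes MDA5, was far lower with 53.0, 78.2 and 69.9. Per length, Ddx58 stood at 89.5 ± 9.15 and Ifih1 at 8.21 ± 1.58 normalized counts per kb (SD, n = 3), and these ranges did not overlap. Dhx58, which encodes LGP2, the other member of that family, had 39.9, 33.8 and 24.9 normalized counts. Zbp1, a sensor of Z-form nucleic acid, had 16.5, 16.2 and 24.9, on 19 to 23 reads.

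Isg15, a ubiquitin-like protein attached to other proteins after interferon, was among the steadiest genes of the list. Replicate 1 had 84.2, replicate 2 had 76.8 and replicate 3 had 87.7 normalized counts, and their mean was 82.9 ± 5.57 (SD, n = 3). Usp18, which removes Isg15 and damps the type I receptor, had 30.4, 42.3 and 28.4. Herc6, the ligase that attaches Isg15 in the mouse, had 71.2, 101 and 79.4. Both were highest in replicate 2. Trim25, a ubiquitin ligase that acts on RIG-I, had the widest range of these 4 with 361, 667 and 499, a 1.84-fold difference.

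The GTPases split into expressed GBP genes and MX genes near zero. Gbp2, a guanylate-binding protein, had 1363, 872 and 1235 normalized counts, lowest in replicate 2. Gbp3, 47.4 kb away (both within chr3:142560026-142638008), had 103, 61.3 and 51.0, so the lowest library was not the same. Mx1, whose allele in C57BL/6 carries a deletion, had 0, 3 and 0 reads in replicates 1, 2 and 3. Mx2 had 4, 14 and 2 reads.

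Of the 8 other effectors, 7 were detected, beside 60.1% of all genes with reads. They held 3 of the 5 genes with a range over 2-fold. Bst2, the membrane protein tetherin that holds budding virus at the cell, had 429, 256 and 391 normalized counts. Ifi35 had 477, 485 and 535, a 1.12-fold range. Rsad2, which encodes viperin, had 31.3, 56.4 and 83.0, lowest in replicate 1. Its neighbour Cmpk2, a nucleotide kinase 12.8 kb away and transcribed from the other strand (both within chr12:26442746-26479837), had 3.47, 26.1 and 26.1 normalized counts on 4, 37 and 22 reads. Both were lowest in replicate 1, though Cmpk2 was level between replicates 2 and 3 and Rsad2 was not. Xaf1, a protein known for opposing the apoptosis inhibitor XIAP, had 132, 78.2 and 56.9. Rtp4 had 25.2, 10.6 and 32.0, lowest in replicate 2 on 15 reads. Ifi44 had 54.7, 33.8 and 43.9 normalized counts. Parp14, an ADP-ribosyltransferase, had 102, 78.9 and 108.

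Over all 3 libraries, the spread of the 25 detected genes was close to that of the transcriptome, but this differed with the libraries compared. Ifit3, Gbp3, Rsad2, Xaf1 and Rtp4 ranged over more than 2-fold from the lowest to the highest library, 5 of 25, beside 21.6% of all detected genes. Gbp3 was just past this limit at 2.01-fold and Trim25 was the next gene below it at 1.84-fold. Without replicate 1 the count was 1 of 26, beside 12.8% of all detected genes, and without replicate 3 it was 2 of 26, beside 15.4%. Without replicate 2 it was 4 of 25, beside 6.39%. On log2(normalized count + 1), the SD had a median of 0.33, against 0.30 for all detected genes and 0.32 for the 8626 detected genes within the range of the list's means. Without replicate 2 these medians were 0.21 for the list and 0.20 for all detected genes.

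**Figure D4:**
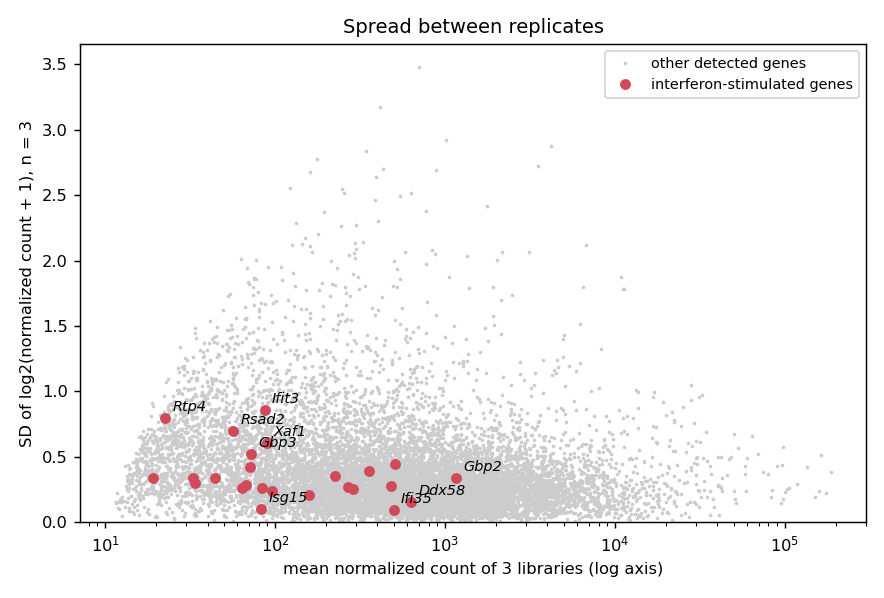
SD of log2(normalized count + 1) over the 3 libraries against the mean normalized count (log axis) for detected genes, with the 25 detected interferon-stimulated genes in red. The red points lie within the cloud, from Ifi35 at 0.089 to Ifit3 at 0.86.

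No library was high or low for the whole list. The log2 difference of 1 library from the mean of the others had a median over the 25 genes of -0.21 in replicate 1, 0.10 in replicate 2 and 0.12 in replicate 3, against -0.025, 0.029 and 0.0049 for all detected genes. Of the 25, 12 were lowest in replicate 1, beside 34.5% of all detected genes, 8 in replicate 2, beside 37.3%, and 5 in replicate 3, beside 28.3%. The highest library was replicate 1 for 6 genes (background 31.5%), replicate 2 for 9 (40.6%) and replicate 3 for 10 (27.9%). With equal totals as the scaling, the medians of replicates 2 and 3 became 0.17 and 0.037, and those of all detected genes 0.097 and -0.076. Every gene has a lowest library, so the sets below are a listing and not a finding of groups. The 4 factors, Ifit1, Ifit3, Ifih1, Eif2ak2, Herc6, Trim25, Rsad2 and Ifi35 were lowest in replicate 1. Gbp2, Bst2, Ifi44, Rtp4, Parp14, Ddx58, Isg15 and Zbp1 were lowest in replicate 2, and Gbp3, Xaf1, Dhx58, Usp18 and Ifit2 in replicate 3. Several of these orders rest on small differences. By the exact binomial tests below, Isg15, Ifi35, Irf7, Zbp1, Dhx58 and Usp18 differed in no pair. Irf1 and Irf9 did not differ between replicates 1 and 3.

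**Figure D5:**
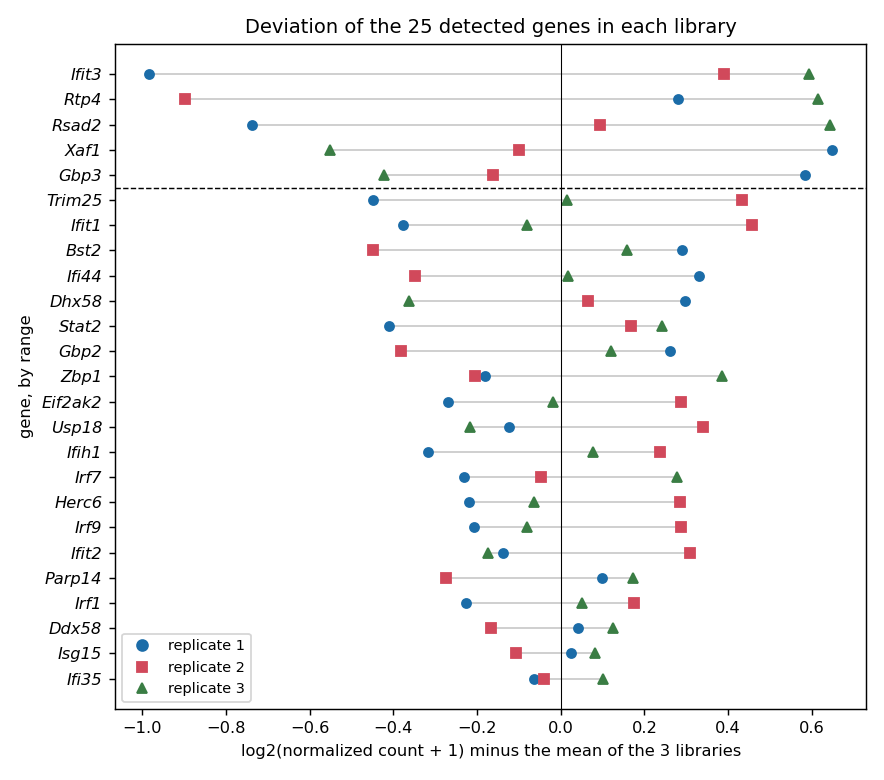
Log2(normalized count + 1) minus the mean of the 3 libraries for each of the 25 detected genes, with replicates 1, 2 and 3 as circles, squares and triangles. Genes above the dashed line have a range over 2-fold, and the library that lies lowest is replicate 1 for Ifit3 and Rsad2, replicate 2 for Rtp4 and replicate 3 for Xaf1 and Gbp3.

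Pairs of libraries were then compared on read counts by two-sided exact binomial tests, with Benjamini-Hochberg adjustment over every gene that had 10 or more reads in that pair. These tests compare libraries and not conditions, and cover counting error only. Between replicates 1 and 3, 7 of 29 tested genes of the list (24.1%) differed at an adjusted p under 0.05 and by more than 2-fold, beside 9.27% of 14316 genes. Between replicates 1 and 2 these were 3 of 29 (10.3%), beside 20.3% of 14771 genes, and between replicates 2 and 3 they were 3 of 30 (10.0%), beside 16.4% of 14344 genes. Split by direction, 4 were higher in replicate 3 than in replicate 1 (background 3.63%) and 3 lower (5.64%), 2 were higher in replicate 2 than in replicate 1 (9.51%) and 1 lower (10.8%), and 2 were higher in replicate 3 than in replicate 2 (7.22%) and 1 lower (9.22%). The shares were not compared with the background by a test, and the background was not matched for level. Cmpk2, Oasl1 and Oasl2, among the genes called between replicates 1 and 3, were not detected by the limit used here. Their lowest libraries in that pair held 4, 0 and 5 reads. At an adjusted p under 0.05 alone, 19 of 29 genes differed in the pair of replicates 1 and 2, 11 of 29 in the pair 1 and 3, and 13 of 30 in the pair 2 and 3, beside 69.1%, 52.0% and 62.6% of all genes. Mx1, Oas1a and Oas2 had too few reads for any pair.

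The genes called were Cmpk2, Gbp3, Ifit3, Oasl1, Oasl2, Rsad2, Rtp4 and Xaf1, 8 in all. Ifit3 was 2.98-fold higher in replicate 3 than in replicate 1 (adjusted p = 6.78e-10, exact binomial test). Rsad2 was 2.60-fold higher in that pair (adjusted p = 4.08e-06, exact binomial test), and Cmpk2 was 6.05-fold higher (adjusted p = 4.33e-05, exact binomial test). In the opposite direction, Xaf1 was 2.30-fold lower in replicate 3 than in replicate 1 (adjusted p = 3.97e-07, exact binomial test) and Gbp3 was 2.01-fold lower (adjusted p = 0.000146, exact binomial test). Oasl2 was 3.53-fold lower there (adjusted p = 0.00489, exact binomial test). Rtp4 was 2.85-fold higher in replicate 3 than in replicate 2 (adjusted p = 0.00125, exact binomial test). At the other end, Dhx58, Ifi35, Irf7, Isg15, Oas3, Usp18 and Zbp1, 7 of the 28 genes tested in all pairs, differed in no pair at an adjusted p under 0.05 by the same exact binomial test, and for Zbp1, Oas3, Usp18 and Dhx58 there were few reads to show a difference. The summed leukocyte markers were also highest in replicate 3, at 878 against 233 in replicate 1 and 291 in replicate 2. This sum followed Lyz2, with 123, 62.7 and 601. Csf1r had 57.3, 179 and 161, lowest in replicate 1 like Ifit3, Cmpk2 and Rsad2, and Cd68 had 22.6, 33.1 and 27.3. The part of such cells in these results was not tested.

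Among the brakes on the pathway, 7 of 8 were detected, beside 60.1% of all genes with reads. Of the 7, 2 had a range over 2-fold, beside 21.6% of all detected genes, and 4 were lowest in replicate 1, beside 34.5%. Socs3, an inhibitor of cytokine receptors, had 625, 225 and 1073 normalized counts in replicates 1, 2 and 3. Socs1, the main inhibitor of interferon receptors, had 65.1, 23.3 and 59.3. Both were lowest in replicate 2, as were Gbp2, Bst2, Rtp4 and 5 other genes of the 33. Of all detected genes, 37.3% were lowest in that replicate. The keratinocyte marker Sfn was also lowest there, with 1507, 287 and 1482, whereas Krt10, the other one detected, had 80.8, 39.5 and 32.0, and the part of such cells was not tested. Of the 13 detected sensing genes, 5 were lowest in replicate 2 and 6 in replicate 1, beside 37.3% and 34.5% of all detected genes. Those lowest in replicate 2 included the receptor Tlr2 with 2714, 979 and 4575 and the kinase Ikbke with 1157, 660 and 1659.

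A wider list of 61 interferon-stimulated genes had 59 in the table and 42 detected, beside 60.1% of all genes with reads. In this list 13 of the 42 had a range over 2-fold, beside 21.6% of all detected genes. Its 5 highest means were B2m with 5826 ± 33.997 normalized counts, Ifitm3 with 4489 ± 815, Ifi27 with 3462 ± 430, Tapbp with 2947 ± 953 and H2-D1 with 2667 ± 1228 (SD, n = 3). B2m, Tapbp and H2-D1 serve antigen presentation, and B2m differed by only 1.01-fold between libraries. Cxcl10, a chemokine gene induced by interferon and by NF-kB, had 499, 85.3 and 455 normalized counts, a 5.80-fold range with replicate 2 lowest. Ccl5, another such chemokine gene, had 851, 38.8 and 735. Both chemokine genes were lowest in replicate 2, as were 8 of the 25 detected genes of the main list, beside 37.3% of all detected genes.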

How the data were processed

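RNA-seq of 3 libraries of 1 condition was used. Per the paper's methods, the authors made stranded mRNA libraries, aligned 50-base single-end reads to mm10 with TopHat, kept unique reads and counted them per gene with HTSeq. The gene annotation and the strand setting of counting are not given in the sources used here. The signal deposited by the authors is normalized counts, that is, read counts divided by 1 DESeq size factor per library. A further 3 columns of per-sample values could not be assigned to a sample and were not used. Reads were recovered by division (100% of values whole within 0.01 reads), giving 22540518, 27037783 and 17244505 in replicates 1, 2 and 3.

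Means and SDs were taken on normalized counts, and folds and log2 values with a pseudocount of 1. Between libraries, two-sided exact binomial tests used the size factors, Benjamini-Hochberg adjustment over every gene with 10 or more reads in that pair, and limits of 0.05 and 2-fold. They called 2996, 1327 and 2358 genes for replicates 1 and 2, 1 and 3, and 2 and 3. Gene lengths, positions and overlaps came from GENCODE M21 (GRCm38, the build of mm10), by symbol, and promoters from RefSeq (GRCm38.p6). Shared 50-base stretches were exact matches between reference transcripts on either strand. TMM factors came from edgeR 4.0.16 in R 4.3.3. Python 3.11.15, numpy 2.4.6, scipy 1.17.1 and pandas 2.3.3 were used for the rest. The pair tests, the range count and the recovery of reads were tried on simulated counts with counting noise only. The other steps were not simulated.

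All 33 genes are named. Of the other lists, genes detected or at 0 are named as examples, and of the wider list those with the 5 highest means or a range over 2-fold. The genes and lists were chosen with earlier results of these data known. Alternatives were other pseudocounts, minimums, fold limits, scalings, lengths and motif forms, and each replicate left out. 1 result on a listed gene is not reported here.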

Additional observations from a re-analysis of the deposited data

How the results depend on the processing

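No paired analysis was possible because all 3 libraries belong to 1 condition. Of the 33 genes, 10 reached 100 normalized counts in each library, against 25 at the limit of 10, and between 25 and 26 were detected with each replicate left out. A range over 2-fold was found in 5 genes, in 11 without a minimum and in 13 at 1.5-fold, and in between 1 and 4 with each replicate left out, fewest without replicate 1. Leaving out 1 library leaves fewer values from which a range can arise. The median SD of log2 values lay between 0.21 and 0.37 when 1 replicate was left out. The median log2 difference of replicate 2 from the others, 0.10, became -0.074 without replicate 1 and 0.18 without replicate 3, and the cause was not tested. With equal totals it was 0.17, and that of replicate 3 was 0.037 in place of 0.12. With no minimum the medians of replicates 1, 2 and 3 were -0.31, 0.31 and 0.078, over more genes. Without a fold limit the exact binomial tests called 19 genes between replicates 1 and 2, 11 between replicates 1 and 3 and 13 between replicates 2 and 3, and at 1.5-fold 11 between replicates 1 and 2, by construction. The response element was found in 7 windows in its longer form and in 6 on the strand of the gene alone, by construction. With TMM scaling and with equal totals, the counts of genes detected, with a range over 2-fold, and called in each pair at the main limits had the same values, and none of the 66 recomputed means moved by more than 1 SD. With the longest transcript as length, 14 of 33 levels per kb moved by more than 1 SD. Depth limited the OAS genes, Mx1, Mx2, Cmpk2, Rtp4 and Zbp1, which had at most 37 reads in any library.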

Other observations

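Among the wider interferon-stimulated genes with a range over 2-fold, the libraries again stood in several orders. Slfn2, of the Schlafen family, had 87.7 normalized counts in replicate 1, 333 in replicate 2 and 59.3 in replicate 3, and Pml, which organizes nuclear bodies, had 320, 859 and 429. Both were highest in replicate 2. Mnda with 49.5, 125 and 74.7 and Gbp7 with 26.1, 44.4 and 19.0 were highest there too. Trim34a had 46.0, 21.1 and 13.04 normalized counts, Gbp5 had 191, 90.2 and 84.2, and the near-identical pair Apol9a and Apol9b had 70.3, 26.8 and 30.8 and 59.9, 19.7 and 34.4. These 4 were highest in replicate 1. Mndal had 43.4, 38.8 and 15.4, lowest in replicate 3. Parp10, a relative of Parp14, had 82.5, 42.3 and 116 normalized counts, and the class I gene H2-D1 had 2595, 1477 and 3929, both lowest in replicate 2. No difference between these genes was tested.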
